A study of Homo sapiens with 6 samples.

Results

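The E2F and DP transcription factors were examined in A549 cells, a human lung adenocarcinoma line, after knockdown of BAP18, a chromatin-associated protein of the BPTF-containing remodeling complex. The family was chosen by gene symbol as E2F1, E2F2, E2F3, E2F4, E2F5, E2F6, E2F7, E2F8, TFDP1 and TFDP2, and all 10 were found among the 35474 genes of the deposited count table. The knockdown group (siBAP18, n = 3) received siRNA against BAP18 and the control group (siCtrl, n = 3) received a nontargeting siRNA. All 6 cultures were unmodified A549 cells harvested 48 h after transfection, and poly(A) RNA was sequenced as paired-end, dUTP strand-marked libraries. Which of the study's 3 BAP18 siRNAs was used here is not given in the sources used here, so the knockdown may rest on a single siRNA sequence. The labels call the replicates biological but do not say how the cultures were separated, so the p-values measure the spread between these cultures.

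E2F proteins bind promoters of genes needed for DNA synthesis and cell division. E2F1 to E2F6 do so as dimers with a DP protein, encoded by TFDP1 or TFDP2. E2F1, E2F2 and E2F3 are mainly activators that the retinoblastoma protein holds in check until cyclin-dependent kinases phosphorylate it. E2F4 and E2F5 act mainly as repressors with the pocket proteins of resting cells, E2F6 represses through Polycomb complexes without pocket proteins, and the atypical E2F7 and E2F8 repress without a DP partner. Several E2F genes are themselves E2F targets, and E2F7 and E2F8 repress E2F1 in a feedback loop.

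Total counts of siCtrl replicates 1 to 3 were 53657450, 46035635 and 47099816, and those of siBAP18 replicates 1 to 3 were 53996860, 56548620 and 42094524. Values per library follow this replicate order throughout. The targeted gene, listed as C17orf49, held 743, 751 and 705 counts in siCtrl cells and 120, 137 and 108 after knockdown, so no library went against its label. MIR497HG on the opposite strand shares 55.8% of the exonic bases of C17orf49 and the readthrough gene RNASEK-C17orf49 shares 44.3%, so its counts may be divided with or include reads of these genes. Epithelial identity was visible in KRT8, with 468428 to 724385 counts per library. By edgeR's quasi-likelihood test, 3 of the 4 epithelial markers were nevertheless lower after knockdown, KRT8 by a log2 fold change of −0.37 (adjusted p = 3.36e-04), KRT18 of −0.24 (adjusted p = 0.0102) and EPCAM of −0.41 (adjusted p = 3.78e-05), and KRT19 did not pass (0.15, adjusted p = 0.0894). CDKN2A, which A549 cells lack through deletion, held 0 to 7 counts. Of the markers of other cell types, VWF (endothelial), COL1A2 and PDGFRB (both fibroblast) held at most 8 counts in any library. The endothelial PECAM1 held 8 to 45 counts and fell (log2 −1.53, adjusted p = 0.00123), CDH5 held 8 to 36 and rose (1.10, adjusted p = 0.0148), and the fibroblast gene COL1A1 held 349 to 611 and fell (−0.38, adjusted p = 0.00124), by edgeR's quasi-likelihood test. The leukocyte genes PTPRC and CD3E and the fibroblast gene DCN were not among the genes listed. CD68, a lysosomal gene best known from macrophages, held 2893 to 3649 counts in siCtrl and 6422 to 7400 in siBAP18. It rose by 1.04 on the log2 scale by the same test (adjusted p = 2.63e-10). The part of these genes in the results was not tested. The siBAP18 libraries were less alike than the siCtrl libraries. The median absolute difference between replicates in log2 counts per 1000000 (CPM) was 0.106 to 0.119 in siCtrl and 0.136 to 0.217 in siBAP18, and the widest pair was siBAP18 replicates 2 and 3. The mitochondrial share of counts also moved with the groups, at 6.87% to 7.43% in siCtrl and 5.28% to 6.14% in siBAP18, and its part in the results was not tested.

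Because several family members are E2F targets by textbook knowledge, the RefSeq promoters of the family (GRCh38.p14, 250 bases before to 50 bases after the start) were searched for the E2F-type words TTTGGCGC, TTTCGCGC, TTTCCCGC and TTTGCCGC on both strands. The word TTTCGCGG was added after the promoters had been read. E2F8 had no entry, and E2F5 was not searched. Of the 8 members searched, E2F1, E2F2, E2F3 and TFDP1 held at least 1 of the first 4 words. Such a word lay in 3.99% of all 27305 genes with a promoter and in 3.31% of all 35116 promoters in the table. The added word lay in the promoters of E2F1, E2F2 and E2F3 and in 0.416% of all promoters. Because it was chosen after the family's promoters had been read, its presence there describes the choice. The comparison with all promoters is therefore no test of enrichment. No such word was found in the windows of E2F4, E2F6, E2F7 or TFDP2. The stretches that hold the words are shown so that the activators can be compared, with each match in capitals. In E2F1 the reverse-strand match to TTTGCCGC overlaps TTTCGCGG.
E2F1: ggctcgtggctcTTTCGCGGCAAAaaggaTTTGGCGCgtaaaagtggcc
E2F2: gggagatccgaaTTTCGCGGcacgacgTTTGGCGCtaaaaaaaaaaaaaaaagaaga
E2F3: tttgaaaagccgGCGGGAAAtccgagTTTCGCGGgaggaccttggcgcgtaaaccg
TFDP1: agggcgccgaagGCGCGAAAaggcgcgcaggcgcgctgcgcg

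These stretches lie at chr20:33686386-33686434 on the minus strand (E2F1), chr1:23531246-23531302 on the minus strand (E2F2), chr6:20401814-20401869 on the plus strand (E2F3) and chr13:113584621-113584662 on the plus strand (TFDP1), and each is written 5′ to 3′ on its gene's strand. In E2F1 and E2F2 the word TTTCGCGG was followed by TTTGGCGC, with 9 bases between them in E2F1 and 7 in E2F2. In E2F3 it was preceded by a reverse match to TTTCCCGC, and this is the first of 2 promoters listed for the gene. The spacing rests on the word added after reading these promoters, and whether it is unusual was not tested. A match describes the letters only and is not evidence of binding in these cells.

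BAP18 knockdown lowered E2F1, E2F2 and E2F8 to between 30.6% and 47.2% of their control level, lowered E2F4, E2F7 and TFDP1 slightly and raised E2F6. E2F3, E2F5 and TFDP2 did not pass the test. Genes were compared with edgeR's quasi-likelihood test on TMM-scaled counts, and p-values were adjusted by the Benjamini-Hochberg method over the 20776 genes that passed a filter on low counts, which all 10 members passed. At an adjusted p under 0.05, 6 of the 10 members were lower and 1 was higher in siBAP18 cells. Without siBAP18 replicate 3, the library most unlike the others of its group, 6 members were lower and 1 was higher as well, with E2F5 called in place of E2F7. The change was widespread in this comparison, since 25.1% of all genes tested were lower and 24.5% were higher at that threshold. Under the stricter rule of the study, which adds an absolute log2 fold change over 1, E2F1, E2F2 and E2F8 were lower and 0 members were higher, a count that was also 0 at an unadjusted p under 0.05 and with DESeq2. Among all genes tested, 3.74% were lower and 4.72% were higher by that rule. The paper's own calls under these thresholds were fewer in each direction, and its sequencing methods name no test. The median log2 fold change was −0.28 over the 10 members and 0.0010 over all genes tested.

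**Figure D1:**
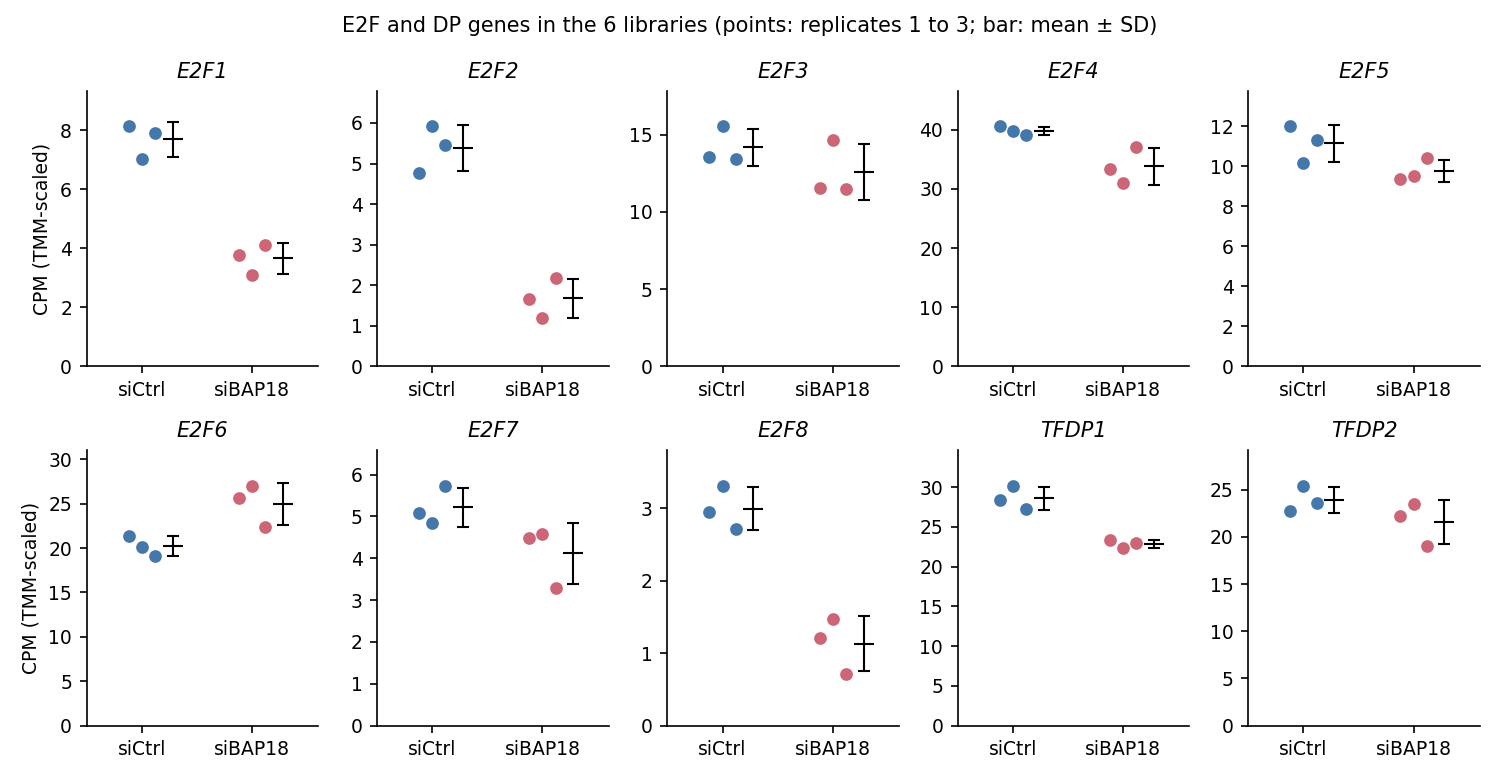
Expression of the 10 E2F and DP genes in TMM-scaled CPM (y axes, each from 0) in siCtrl and siBAP18 libraries; points are replicates 1 to 3 and the bar beside them is the mean ± SD. E2F1, E2F2 and E2F8 show the widest separation relative to their own level, with siBAP18 means of 3.65, 1.67 and 1.13 CPM against siCtrl means of 7.68, 5.38 and 2.99 CPM, whereas the groups overlap for E2F3, E2F5 and TFDP2.

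Among the activators, E2F2 changed most by edgeR's quasi-likelihood fit. The order turned with limma on log2(RPKM + 1), with or without a filter, at −0.73 for E2F1 and −0.60 for E2F2. E2F2 lies on chromosome 1 from 23506430 to 23531220 on the minus strand. The siCtrl libraries held 254, 275 and 255 counts of E2F2 and the siBAP18 libraries held 90, 70 and 88. Every siBAP18 library was below every siCtrl library, and expression was 5.38 ± 0.572 CPM (SD, n = 3) in siCtrl and 1.67 ± 0.486 CPM (SD, n = 3) in siBAP18. Its log2 fold change of −1.71 ± 0.169 (SE, adjusted p = 6.04e-09) left 30.6% of the control level. In bulk RNA, fewer cells that express a gene and less of its RNA per cell cannot be told apart, and this holds for every value given here.

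E2F1, the best-studied activator and an inducer of S-phase entry, lies on chromosome 20 from 33675683 to 33686404 on the minus strand. Counts of E2F1 were 432, 326 and 370 in siCtrl cells and 206, 180 and 166 after knockdown. The groups did not overlap, at 7.68 ± 0.592 CPM (SD, n = 3) and 3.65 ± 0.519 CPM (SD, n = 3). E2F1 fell with a log2 fold change of −1.08 ± 0.123 (SE, adjusted p = 6.07e-08), to 47.2% of the control level. Its change lay close to the fold threshold, and without siBAP18 replicate 2 it was −0.97 and no longer passed the stricter rule.

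E2F3, the remaining activator, lies on chromosome 6 from 20401906 to 20493715 on the plus strand. It held 720, 722 and 628 counts in siCtrl cells and 629, 855 and 466 after knockdown. On the scaled values siBAP18 replicate 2 lay at 14.6 CPM, within the siCtrl range of 13.4 to 15.5 CPM, while the other two siBAP18 libraries lay below it. Its log2 fold change was −0.17 (95% interval −0.37 to 0.03, adjusted p = 0.16), so a fall as large as that of E2F1 or E2F2 lies outside the interval. Without siBAP18 replicate 2 the value was −0.30 (adjusted p = 0.0083). It was smaller without siCtrl replicate 2 (−0.10, adjusted p = 0.503). Leaving out siBAP18 replicate 1 (adjusted p = 0.47) or replicate 3 (adjusted p = 0.357) gave −0.11. E2F3 encodes a long and a short protein form from separate promoters, which the gene-level counts do not resolve.

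The RPKM ratio of E2F1 to E2F3, which compares the genes per length, was 1.24, 0.932 and 1.22 in siCtrl cells and 0.676, 0.434 and 0.735 in siBAP18 cells. The ranges did not overlap, so the balance within the activator class differed between the groups in every library.

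The repressors that work with pocket proteins differed little between the groups. E2F4, the member with the highest mean RPKM in both groups, lies on chromosome 16 from 67192169 to 67198918 on the plus strand. Its counts were 2157, 1848 and 1830 in siCtrl and 1815, 1807 and 1504 in siBAP18. The groups did not overlap at 39.8 ± 0.707 CPM (SD, n = 3) against 33.8 ± 3.10 CPM (SD, n = 3), with a log2 fold change of −0.24 ± 0.0739 (SE, adjusted p = 0.00905). E2F5, on chromosome 8 from 85177225 to 85217158 on the plus strand, had counts of 637, 472 and 529 in siCtrl and 510, 554 and 422 in siBAP18. Its groups overlapped, with a log2 fold change of −0.20 (95% interval −0.39 to −0.0037, adjusted p = 0.0849). It passed the test without siCtrl replicate 2 (adjusted p = 0.049) and without siBAP18 replicate 3 (adjusted p = 0.0294). C8orf59 on the opposite strand shares 16.3% of the exonic bases of E2F5, and the use of strand in counting is not given in the sources used here, so part of its counts may belong to that gene.

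E2F6 was the only one of the 10 members to rise. It lies on chromosome 2 from 11444375 to 11466177 on the minus strand and encodes a repressor that recruits a noncanonical Polycomb complex, PRC1.6, to G1/S and germline genes. Its counts were 1138, 937 and 895 in siCtrl and 1393, 1578 and 908 in siBAP18. On the scaled values the groups were separated by a narrow gap, with siBAP18 replicate 3, the shallowest library, at 22.4 CPM, siBAP18 replicates 1 and 2 at 25.6 and 27.0 CPM and the highest siCtrl library at 21.4 CPM. Expression was 20.2 ± 1.13 CPM (SD, n = 3) in siCtrl and 25.0 ± 2.37 CPM (SD, n = 3) in siBAP18. The rise, 0.31 ± 0.0805 on the log2 scale (SE, adjusted p = 0.00245), brought E2F6 to 123.8% of the control level. With each library left out it stayed between 0.25 and 0.38, and with limma on unfiltered log2(RPKM + 1) the adjusted p was 0.0952. The pseudogenes E2F6P1, E2F6P2 and E2F6P3 held at most 6 counts in any library.

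The atypical repressors differed from each other. E2F8, on chromosome 11 from 19224063 to 19241620 on the minus strand, had counts of 157, 154 and 127 in siCtrl and 66, 86 and 29 in siBAP18. Expression was 2.99 ± 0.299 CPM (SD, n = 3) against 1.13 ± 0.385 CPM (SD, n = 3), without overlap and with siBAP18 replicate 3 lowest. A log2 fold change of −1.36 ± 0.202 (SE, adjusted p = 3.51e-06) left 38.8% of the control level, and without siBAP18 replicate 3 the change was −1.15 and still passed both rules. E2F8 had the fewest counts of the family, and its standard error was the largest of the 10.

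E2F7, on chromosome 12 from 77021247 to 77065580 on the minus strand, had counts of 270, 225 and 268 in siCtrl and 244, 268 and 133 in siBAP18. The scaled values were 4.84 to 5.73 CPM in siCtrl and 4.48, 4.59 and 3.28 CPM in siBAP18 replicates 1, 2 and 3. The groups did not overlap, but the gap was small and siBAP18 replicate 3 lay well below the other two. The log2 fold change was −0.33 (95% interval −0.60 to −0.05, adjusted p = 0.0441). This call was not stable. Without siBAP18 replicate 3 the change was −0.20 (adjusted p = 0.193) and without siCtrl replicate 3 it was −0.26 (adjusted p = 0.182). The call was also lost without siCtrl replicate 1 (adjusted p = 0.0692) and with DESeq2 (adjusted p = 0.124). In these fits the change was about as large, at −0.35 and −0.33. The RPKM ratio of E2F8 to E2F7 was 0.885, 1.04 and 0.722 in siCtrl cells and 0.412, 0.489 and 0.332 in siBAP18 cells, again without overlap.

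Of the DP partners, TFDP1 fell and TFDP2 did not pass the test. TFDP1, on chromosome 13 from 113584721 to 113641470 on the plus strand, had counts of 1509, 1404 and 1275 in siCtrl and 1270, 1305 and 934 in siBAP18. Expression was 28.6 ± 1.47 CPM (SD, n = 3) against 22.9 ± 0.510 CPM (SD, n = 3), without overlap. TFDP1 changed by −0.32 ± 0.0724 on the log2 scale (SE, adjusted p = 6.21e-04), to 80.1% of the control level. TFDP2, on chromosome 3 from 141944428 to 142149544 on the minus strand, had counts of 1211, 1182 and 1103 in siCtrl and 1208, 1374 and 770 in siBAP18. Its log2 fold change was −0.14 (95% interval −0.31 to 0.02, adjusted p = 0.15). It was −0.21 without siBAP18 replicate 2 (adjusted p = 0.0304) and −0.06 without siBAP18 replicate 3 (adjusted p = 0.492). The intervals of the DP genes overlap, so a difference between their responses is not established. The RPKM ratio of TFDP1 to TFDP2 was 3.68 to 3.96 in siCtrl and 3.02 to 3.86 in siBAP18, with overlap.

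The 3 siBAP18 libraries lay below the 3 siCtrl libraries for 6 of the 10 members and above them for 1. Among all genes tested, 29.0% were separated in the first way and 27.6% in the second.

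**Figure D2:**
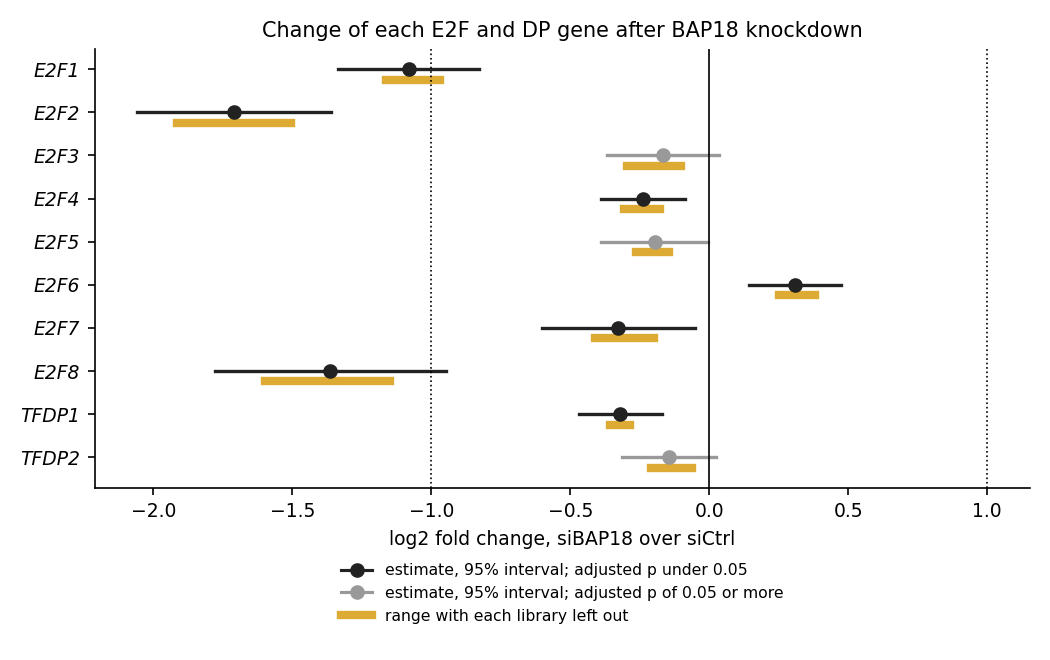
Log2 fold change of each member, siBAP18 over siCtrl (x axis), with its 95% interval from edgeR's quasi-likelihood fit in black where the adjusted p was under 0.05 and in grey otherwise; yellow bars span the estimates with each of the 6 libraries left out in turn, and dotted lines mark −1 and 1. E2F2 (−1.71), E2F8 (−1.36) and E2F1 (−1.08) lie apart from the other members, and E2F6 (0.31) is the only estimate above 0.

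Levels of different genes were compared on the deposited RPKM values, which are corrected for gene length. In siCtrl cells the order was E2F4 (mean 11.1 RPKM), TFDP1 (7.64), E2F6 (4.96), E2F1 (3.06), E2F3 (2.74), TFDP2 (2.01), E2F5 (1.88), E2F2 (0.985), E2F7 (0.826) and E2F8 (0.722). The ranges over 3 libraries overlapped between E2F1 and E2F3, between TFDP2 and E2F5, between E2F2 and E2F7 and between E2F7 and E2F8, so these neighbors cannot be ranked. In siBAP18 cells E2F1 (1.46 RPKM) stood below E2F3 (2.44) and E2F5 (1.65), and its range overlapped that of TFDP2 (1.82). E2F6 (6.17) overlapped TFDP1 (6.13), which it had stood below in siCtrl cells. E2F2 (0.305) and E2F8 (0.276) were the lowest, with overlapping ranges.

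The makeup of the E2F transcript pool therefore differed between the groups. E2F1, E2F2 and E2F3 held 25.1%, 26.3% and 26.1% of the summed RPKM of E2F1 to E2F8 in siCtrl cells and 18.2%, 19.3% and 18.9% in siBAP18 cells. E2F4, E2F5 and E2F6 held 67.7% to 69.3% in siCtrl and 75.9% to 78.1% in siBAP18. Neither share overlapped between the groups. Within the pool, the share of E2F6 was 18.9% ± 0.695 (SD, n = 3) in siCtrl and 27.5% ± 2.81 (SD, n = 3) in siBAP18, and that of E2F1 was 11.7% ± 0.852 (SD, n = 3) and 6.53% ± 0.888 (SD, n = 3). The share of E2F4 was 42.2% in the mean of either group, and that of E2F3 was 10.4% in siCtrl and 10.9% in siBAP18. The summed RPKM of E2F4, E2F5 and E2F6 was 17.9 ± 0.513 (SD, n = 3) in siCtrl and 17.2 ± 0.242 (SD, n = 3) in siBAP18, whereas that of E2F1, E2F2 and E2F3 was 6.79 ± 0.153 (SD, n = 3) and 4.21 ± 0.192 (SD, n = 3).

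**Figure D3:**
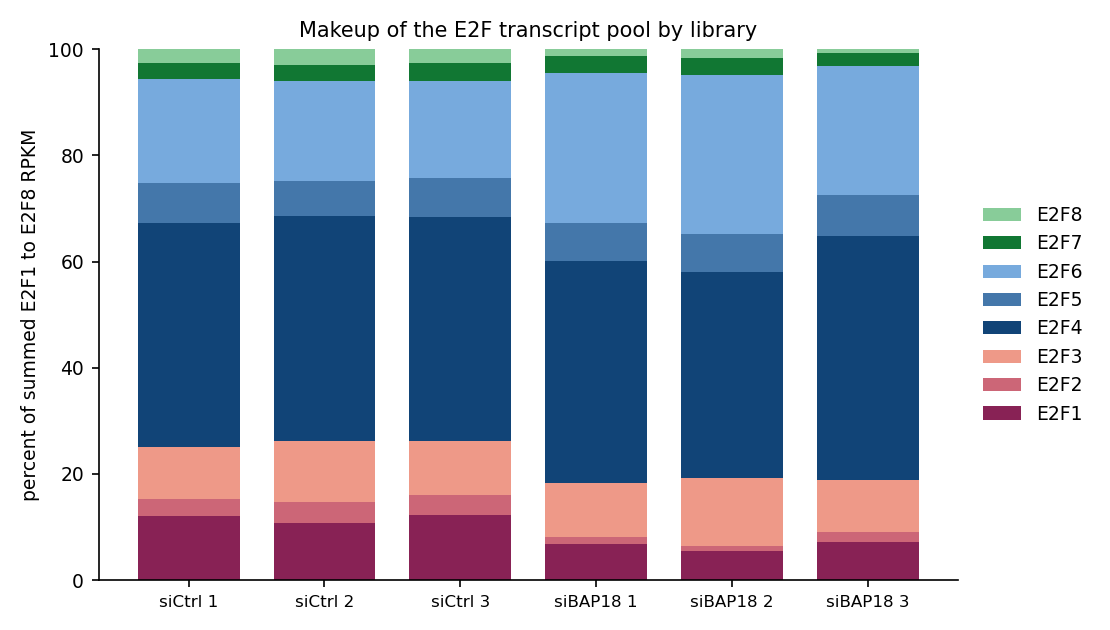
Share of each of E2F1 to E2F8 in their summed RPKM (y axis, percent) in the 6 libraries (x axis). The red activator segments take 25.1% to 26.3% of the siCtrl bars and 18.2% to 19.3% of the siBAP18 bars, and the light blue E2F6 segment takes 18.2% to 19.6% and 24.4% to 29.9%.

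The study's BAP18 siRNAs were also looked for by their seed, since a guide strand can lower transcripts that match its bases 2 to 8 in the 3′ UTR. In the longest 3′ UTR of each gene in GENCODE 29, the matching words were AATCACA for siBAP18#1, AAGATTC for siBAP18#2 and ACTCAAC for siBAP18#3, found in 13.1%, 10.2% and 6.53% of 18769 genes. None of the 6 members that fell held any of these words. Each word is absent from most genes, and the 3′ UTRs of these members were 595 (E2F8) to 3450 (E2F2) bases long. An effect of the seeds was not tested. The word of siBAP18#1 lay in TFDP2, that of siBAP18#2 lay in E2F6 and TFDP2, and that of siBAP18#3 lay in E2F3, and the word for the guide of the control siRNA, TGTCACG, was in none of the 10. The site in E2F3 is printed with its match in capitals.
E2F3: acatagtaggcACTCAACtcatatgttta

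The other genes of the pathway were taken from 7 lists compiled by hand from textbook knowledge, with earlier results of these data known, so their counts are descriptions, to be read against the 25.1% of all genes tested that were lower and the 24.5% that were higher. All 3 pocket proteins fell. RBL1 (p107), itself an E2F target, changed by −1.02 on the log2 scale (adjusted p = 6.07e-08), RBL2 (p130) by −0.48 (adjusted p = 2.81e-05) and RB1 by −0.44 (adjusted p = 0.00327). RB1 did not pass with limma on log2(RPKM + 0.1) (adjusted p = 0.0502) or on unfiltered log2(RPKM + 1) (adjusted p = 0.119). Of the 19 cyclins, CDKs, CDK inhibitors and ubiquitin ligase subunits that act upstream of E2F, 16 were tested, 8 fell (50%) and 5 rose (31.2%), the latter a share near that of all genes tested (24.5%). Lower were the cyclins CCND1 (−0.79, adjusted p = 8.03e-10), CCND3 (−1.03, adjusted p = 2.26e-11) and CCNE2 (−1.32, adjusted p = 1.95e-07) and the kinase CDK2 (−0.88, adjusted p = 2.59e-10). The cyclins CCNA2 (−0.67, adjusted p = 6.39e-07) and CCNE1 (−0.25, adjusted p = 0.0157) were lower as well. The kinase CDK4 rose by 0.35 (adjusted p = 2.06e-04), and CDK6 did not pass (−0.07, adjusted p = 0.613). The inhibitors CDKN1A (1.74, adjusted p = 7.30e-16), CDKN1B (0.35, adjusted p = 1.32e-04) and CDKN2D (0.66, adjusted p = 6.15e-04) rose, while CDKN1C (−0.21, adjusted p = 0.605) and CDKN2C (0.10, adjusted p = 0.279) did not pass. SKP2 and CCNF, substrate receptors of ubiquitin ligases, had log2 fold changes of −0.76 (adjusted p = 6.40e-05) and −0.35 (adjusted p = 0.0024). FZR1, also a ubiquitin ligase gene of this list, rose by 0.21 (adjusted p = 0.0272).

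The MuvB core forms the DREAM repressor with p107 or p130, E2F4 or E2F5 and a DP protein, and activates mitotic genes with the B-MYB and FOXM1 proteins, which are not part of DREAM. Of 8 genes of the core and its activating partners, 5 fell (62.5%, against 25.1% of all genes tested) and 1 rose (12.5%, against 24.5%). Among the activating partners, MYBL2 changed by −0.99 on the log2 scale (adjusted p = 9.33e-11) and FOXM1 by −0.39 (adjusted p = 4.23e-05). Among the core subunits, RBBP4 changed by −0.41 (adjusted p = 3.02e-05) and LIN37 rose by 0.53 (adjusted p = 5.61e-05). Among the 12 partners of E2F6 in PRC1.6, 5 fell (41.7%, against 25.1% of all genes tested) and 6 rose (50%, against 24.5%). PCGF6, the subunit that defines the complex, rose by 0.70 (adjusted p = 1.39e-04), YAF2 by 0.45 (adjusted p = 0.0011) and HDAC1 by 0.31 (adjusted p = 4.32e-04), whereas the heterochromatin protein gene CBX3 changed by −0.70 (adjusted p = 3.04e-09). The number of partners that fell was 3 without siCtrl replicate 2 and in both filtered limma fits. With limma on unfiltered log2(RPKM + 1), 1 partner fell and 3 rose, and YAF2 did not pass in any of the 3 limma fits (adjusted p from 0.0675 to 0.153).

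Of 43 textbook E2F targets of G1/S and S phase, 41 fell (95.3%, against 25.1% of all genes tested) and 0 rose, a count that was also 0 at an unadjusted p under 0.05 and with DESeq2. Their median log2 fold change was −0.83, against 0.0010 for all genes tested. For 42 of the 43, all 3 siBAP18 libraries lay below all 3 siCtrl libraries, as for 29.0% of all genes tested. GINS1, a subunit of the replicative helicase, changed by −1.84 on the log2 scale (adjusted p = 3.56e-15). At least 1 of the first 4 promoter words lay in 23 of the 37 of these genes with a RefSeq promoter (62.2%), compared with 3.99% of all genes in the table. Since the list was compiled as E2F targets, this share describes the list and is no result of the knockdown. In the other lists such a word lay in 1 of 3 pocket proteins, 0 of 14 cyclin, CDK, inhibitor and ligase genes and 1 of 6 MuvB genes and partners. It lay in 2 of 12 PRC1.6 partners, 2 of 6 cell death targets and 0 of 11 germline genes. Of 8 targets that act in cell death and feedback, 3 fell (37.5%) and 1 rose (12.5%), shares not far from those of all genes tested (25.1% and 24.5%), and 2 rose without siBAP18 replicate 3. BBC3, a proapoptotic gene that p53 also activates, rose by 2.96 (adjusted p = 1.08e-19), and CASP8AP2 (−1.15, adjusted p = 2.80e-10), APAF1 (−0.62, adjusted p = 5.16e-06) and BCL2L11 (−0.65, adjusted p = 6.48e-06) fell. A list of 12 genes compiled as germline genes silenced by E2F6 had 6 tested, of which 1 fell (16.7%) and 2 rose (33.3%), again near the shares of all genes tested. STAG3, a cohesin subunit of meiosis, was lower (−0.65, adjusted p = 1.23e-08), and TUBB3 (0.67, adjusted p = 1.77e-08) and STK31 (0.87, adjusted p = 0.0215) were higher. TUBB3 is a neuronal tubulin rather than a germline gene, and with mean levels of 22.3 RPKM for TUBB3 and 13.8 RPKM for STAG3 in siCtrl cells neither was silent here. STK31 did not pass with DESeq2 (adjusted p = 0.0744) or without siCtrl replicate 2 (0.0692), siCtrl replicate 3 (0.0691) or siBAP18 replicate 1 (0.0554).

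**Figure D4:**
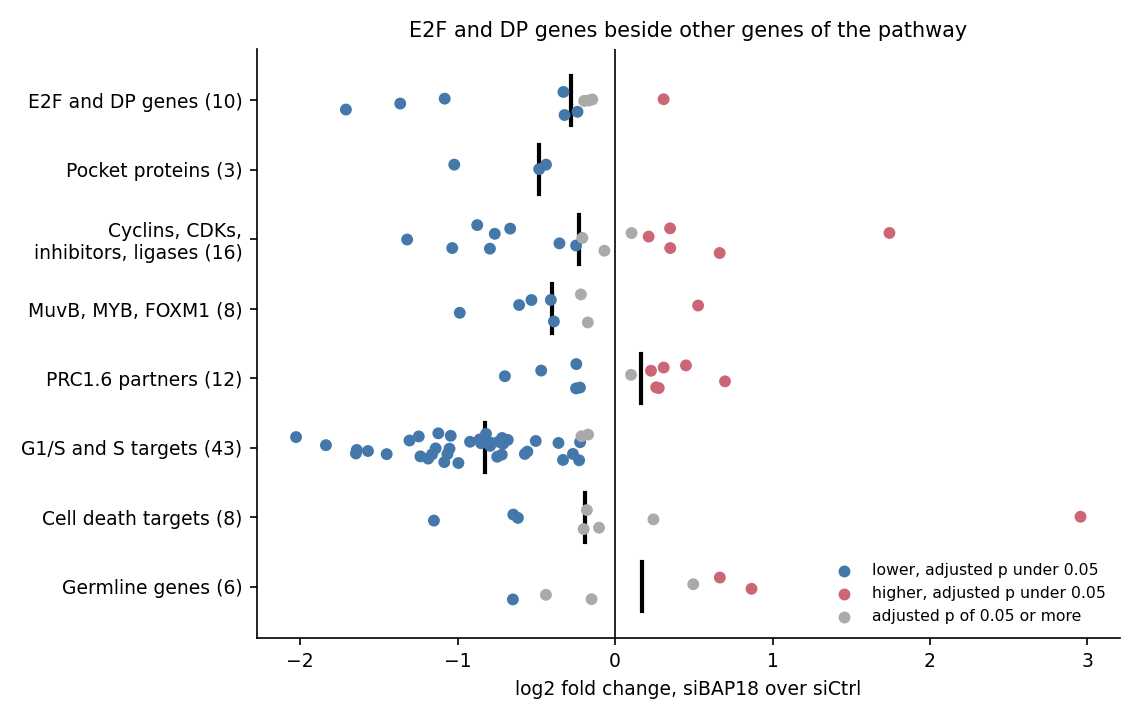
Log2 fold change, siBAP18 over siCtrl (x axis), of each tested gene in the E2F and DP family and in 7 lists of other pathway genes (rows, with the number tested); blue and red points had an adjusted p under 0.05 in edgeR's quasi-likelihood test, grey points did not, and black bars are medians. The G1/S and S-phase targets lie below 0 (median −0.83), the family spreads from −1.71 to 0.31, and the PRC1.6 partners lie on both sides.

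Genes with the most similar profile were found by the Euclidean distance between log2 CPM values, centered on each gene's mean over the 6 libraries, among 14221 genes whose log2 CPM averaged 1 or more. For E2F1 they were RP11-140H17.1 (distance 0.117), SYTL1 (0.121) and CCND3 (0.130). For E2F4 they were MTATP6P1 (0.0468), INF2 (0.0470) and TUBG1 (0.0484). For E2F8 they were F2RL2 (0.365), FER1L4 (0.370) and NEAT1_1 (0.377), at greater distances. Over 2 groups, this distance mostly reflects the size of the change between them.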

How the data were processed

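The authors deposited raw counts per gene and RPKM for 6 libraries; the deposited RPKM values equal the counts per kilobase of listed gene length relative to each column's total. The aligner, counting program and strand setting are not given in the sources used here. The submitters' processing notes name the builds hg38 and GRCm38, and exon positions in the files are human.

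Counts were scaled by TMM after filterByExpr and fitted by group with edgeR 4.0.16 in R 4.3.3 (quasi-likelihood test, Benjamini-Hochberg adjustment over 20776 genes). The standard error is the log2 fold change over the square root of F, and intervals are 95%. DESeq2 1.42.0 and limma 3.58.1 were alternatives, as were other scalings, filters, a replicate block and leaving out each library. The steps were tested on simulated data. Replicate numbers did not pair the libraries (Pearson r of the residuals across genes −0.017, 0.051 and 0.0038), and no replicates were copies (chi-square over its degrees of freedom was 3.94 to 23.3).

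Promoters came from RefSeq and 3′ UTRs from GENCODE 29, searched with Python 3.11.15. Protein sequences, which were to be searched, were not used here. Named genes were the members and up to 4 called genes of each list by lowest adjusted p, and any gene of the pocket protein and cyclin, CDK and inhibitor lists could be named as a direct regulator. The members and lists were chosen with earlier results of these data known.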

Additional observations from a re-analysis of the deposited data

How the results depend on the processing

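No member changed direction under any of the 16 alternatives. The calls of E2F1, E2F2, E2F4, E2F8 and TFDP1 at an adjusted p under 0.05 held wherever they could be fitted; E2F8 fell below the RPKM filter of 2 limma alternatives. E2F7 changed its call under 10 alternatives, E2F5 under 2 and E2F3, E2F6 and TFDP2 under 1 each. With a replicate block 6 members were lower, as without it, and no member's call changed (E2F7 −0.33, adjusted p = 0.0339). The number of members lower was 4 to 8 over all alternatives. With limma on unfiltered log2(RPKM + 1) 0 members were higher, where 1 was higher otherwise. With limma on log2(RPKM + 1), with or without a filter, 0 members passed the stricter rule with its fold threshold, since the pseudocount shrinks the fold of genes at low RPKM, and with a pseudocount of 0.1 E2F1 and E2F2 passed. The genes lower by the stricter rule numbered 133 with limma on log2(RPKM + 1), with or without a filter, and 434 with a pseudocount of 0.1, against 777. Those higher numbered 215, 212 without a filter and 475 with a pseudocount of 0.1, and 605 with at least 10 counts in every library, against 981. Of 96 other pathway genes tested, 80 kept their call under every alternative in which they could be fitted and 0 reversed. Depth limits E2F8 and E2F2 most, at 29 to 157 and 70 to 275 counts per library.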
